A study of Homo sapiens with 2 samples.

Results

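The MYC, MAX and MXD network is a set of transcription factors that compete for the same DNA element, and its transcripts were compared here between H6c7 cells carrying a K-ras oncogene and the parental H6c7 line. The members were chosen by gene symbol, as MYC, MAX, MXD1, MXI1, MXD3, MXD4, MNT, MLX and MGA. Of these 9 genes, 8 had a probe set that the array's annotation pairs with exactly 1 gene symbol, out of 11963 genes with such a probe set, and together they had 15 probe sets. MXD4 had none, since its 3 probe sets carry a second symbol. H6c7 is a line of human pancreatic duct epithelium immortalised with papillomavirus genes, whose proteins act against p53 and RB, and both lines share that background. The K-ras cells are described as H6c7 cells with the oncogene introduced. The labels give neither the mutant allele, the vector, a vector control, nor whether the cells were 1 clone. Each line was measured on 1 Affymetrix U133A array, so no value below has a replicate error, no difference was tested, and differences between cultures or hybridisations cannot be told apart from the effect of K-ras.

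MYC forms dimers with MAX that bind the E-box, the sequence CACGTG, and activate genes for growth, ribosome production and metabolism. MXD proteins and MNT bind MAX in place of MYC and bring the SIN3 and histone deacetylase corepressor to the same element. MLX serves as an alternative partner for some MXD proteins and for the nutrient-sensing Mondo proteins, and MGA pairs with MAX inside a polycomb repressor complex. In pancreatic carcinoma, MYC is known as an effector of mutant K-ras, whose MAP kinase output stabilises the MYC protein. Arrays of this kind measure transcripts and give no view of that step.

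Promoter windows from RefSeq (GRCh38.p14, 250 bases before to 50 after a start site, 300 in all) show where the network's own element lies near its members. CACGTG reads the same on both strands, and 7.26% of the 35116 windows in the table hold it. Among the members searched, MNT and MLX hold 1 each, at 193 and 50 bases upstream of the start site, and no window of MAX, MXD1, MXI1, MXD3 or MGA does. MYC had no window here, and MXD4 was not searched. ODC1, a classical MYC target that encodes the first enzyme of polyamine synthesis, holds 2 in 1 of its windows, at 29 bases upstream and 5 bases downstream of the start site. The stretches around these E-boxes are shown 5′ to 3′ on the gene's strand, with each E-box in capitals. ODC1 stands as an example, since 29 measured genes of the MYC-activated lists below hold the element in a window.
MNT: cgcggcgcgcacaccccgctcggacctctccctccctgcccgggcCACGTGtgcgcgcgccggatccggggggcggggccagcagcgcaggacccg
MLX: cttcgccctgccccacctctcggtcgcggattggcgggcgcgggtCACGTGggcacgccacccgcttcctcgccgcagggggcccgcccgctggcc
ODC1: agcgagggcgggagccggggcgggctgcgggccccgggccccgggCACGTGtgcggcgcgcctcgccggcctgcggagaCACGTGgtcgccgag
The MNT stretch lies at chr17:2401203-2401298 on the minus strand, the MLX stretch at chr17:42567005-42567100 on the plus strand and the ODC1 stretch at chr2:10447993-10448086 on the minus strand. A match is a sequence and not evidence of binding.

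The deposited signals are linear and were already scaled. The 2 arrays had median signals of 46.9 in the K-ras line and 43.9 in the parental line, and the higher median, 46.9, served as the floor under which a probe set was taken as not measured. Where only 1 array passed the floor, the ratio was taken to the floor and is a bound, given as "at least". Duct keratins and other duct markers were above the floor in both lines for 6 of the 7 with a probe set. The exception, the chloride channel gene CFTR, was below it on both. Of those 6, 3 were lower in the K-ras line by 2-fold or more. The keratin KRT19 gave signals of 1644 in the K-ras line and 4511 in the parental line, the adhesion molecule EPCAM 478 in the K-ras line and 994 in the parental line, and the duct transcription factor SOX9 185 in the K-ras line and 378 in the parental line. The other keratins of the list went both ways. KRT8 gave 2044.5 in the K-ras line and 1110.6 in the parental line, and KRT18 8606 in the K-ras line and 6622.1 in the parental line. KRT7 was lower, at 2466.3 in the K-ras line and 3074.5 in the parental line. The part of these marker differences in the values below was not tested. Of 21 markers of acinar, endocrine, fibroblast, leukocyte and endothelial cells with a probe set, 7 were above the floor in the K-ras line and 2 in the parental line, and their highest signals were 94.6 in the K-ras line and 131 in the parental line. Signals of the 3′ over the 5′ probe set, a measure of RNA integrity, were 0.888 in the K-ras line and 0.817 in the parental line for GAPDH, and 1.10 in the K-ras line and 1.28 in the parental line for actin. Probe sets of the K-ras gene itself were not analysed here.

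In the K-ras line the transcripts of MYC and of its antagonist MNT were both moderately higher, MAX was nearly equal in its brightest probe set, MLX was slightly lower in all 4 of its probe sets, and MGA was below the floor. Of the 15 member probe sets, 10 were above the floor on both arrays, 1 in the K-ras line alone, 2 in the parental line alone, and 2 on neither. Of the 13 measured, 1 was at least 2-fold higher in the K-ras line and 1 at least 2-fold lower. Over all 11084 measured probe sets with 1 gene symbol, 10.1% were higher by 2-fold or more and 14.7% lower by as much, so the members' counts were near the share of the whole array. The 10 that passed the floor in both lines had log2 ratios between -0.50 and 1.02.

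**Figure D1:**
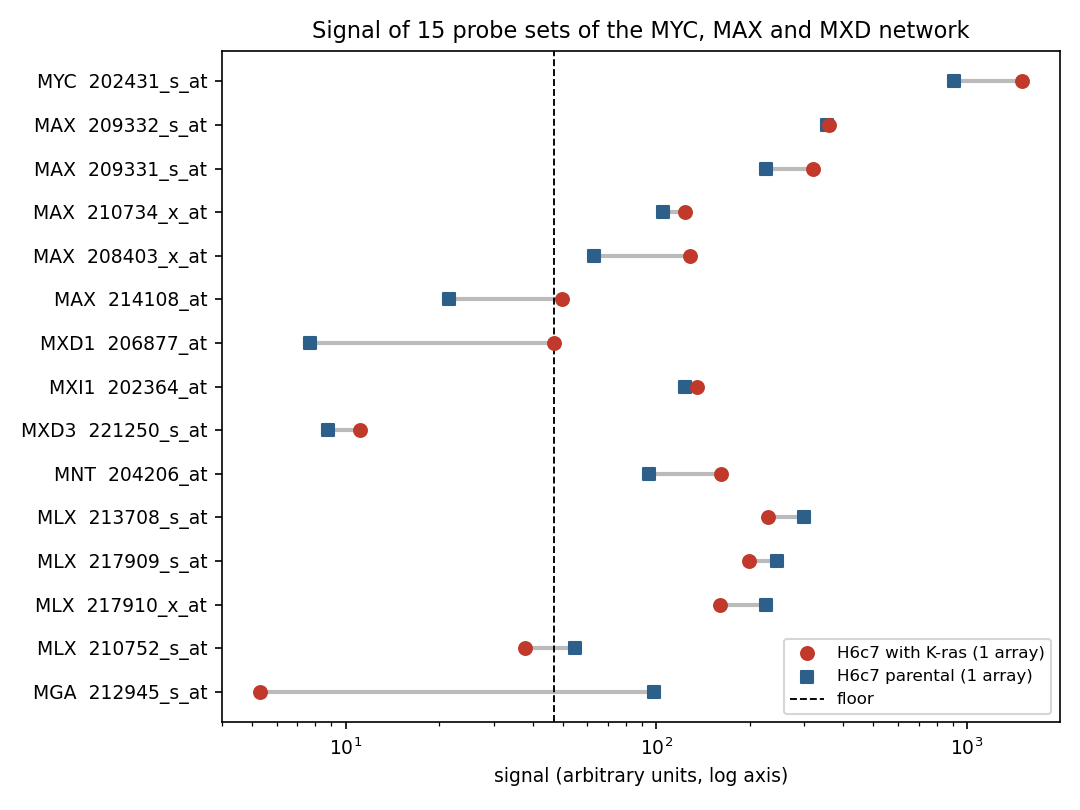
Signal of the 15 probe sets of the network in arbitrary units on a log axis, with red circles for the K-ras array, blue squares for the parental array and a dashed line at the floor of 46.9. MYC, MAX and MNT lie to the right in the K-ras line, the 4 MLX probe sets to the left, and MGA lies at 5.30 in the K-ras line, below the floor, and at 98.1 in the parental line.

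MYC, the activating member, gave signals of 1501 in the K-ras line and 912 in the parental line, in its only probe set, 202431_s_at. This is a 1.65-fold difference, a log2 ratio of 0.72. It is under the 2-fold threshold, and 18.7% of all measured probe sets had a higher ratio. The closest to a repeat measurement in these data is that between probe sets of 1 gene, whose log2 ratios had a pooled standard deviation of 0.46 over 1671 genes. That spread lies between different probe sets on the same 2 arrays and holds no error shared by a whole array or culture. The MYC difference is larger than 1 such deviation but cannot be set against the error of repeated arrays or cultures. MYC stayed higher in the K-ras line under each of 10 alternative settings, with log2 ratios from 0.58 to 0.76. Some of these settings could not move it. Its signals lie far above the floor, so the floor at the 30th or 70th percentile or no floor left 0.72. The values as deposited, already scaled, gave 0.72 too.

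MAX, the partner with which MYC, the MXD proteins, MNT and MGA bind the E-box, had 5 probe sets that disagreed on size. The brightest, 209332_s_at, gave signals of 360 in the K-ras line and 355 in the parental line, a log2 ratio of 0.02. The next, 209331_s_at, had 321 in the K-ras line and 226 in the parental line, a log2 ratio of 0.51. Both of these are well above the floor, and they differ from each other by about the spread seen between probe sets of other genes. The 2 probe sets whose name ends in _x_at, which can pick up related transcripts, are uncertain. They gave signals of 128 and 123 in the K-ras line, against 63.2 and 105 in the parental line. The log2 ratio of the first of these, 208403_x_at, was 1.02, the one value among the members at least 2-fold higher. The log2 ratio of the second, 210734_x_at, was 0.23. The remaining one, 214108_at, gave signals of 49.7 in the K-ras line and 21.5 in the parental line, which gives only a bound of 1.06-fold. Over the 4 that passed the floor in both lines, the log2 ratio of MAX was 0.44 ± 0.43 (SD, n = 4 probe sets of 1 array pair). The mean is about the size of its spread. With median centring the log2 ratio of the brightest probe set turned negative, at -0.07, and its highest value over the settings was 0.33.

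The MXD repressors were dim or little different. MXI1, also called MXD2, is an antagonist of MYC that binds MAX. It gave signals of 135 in the K-ras line and 124 in the parental line, a 1.09-fold difference that is smaller than the disagreement between probe sets. MXD1, known to appear as epithelial cells leave the cycle and differentiate, gave signals of 46.8 in the K-ras line and 7.70 in the parental line. The K-ras signal lies just under the floor of 46.9, so MXD1 was not measured by the rule and has no fold. With the floor at the 30th percentile, a signal of 19.9, it passed in the K-ras line alone, with a bound at a log2 ratio of 1.23. MXD3, a member known from dividing cells, had signals of 11.1 in the K-ras line and 8.80 in the parental line, both far below the floor, and nothing can be said of its level.

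MNT, the most widely expressed MAX-binding repressor, was higher by about as much as MYC. Its probe set 204206_at gave signals of 161 in the K-ras line and 95.0 in the parental line. This 1.70-fold difference, a log2 ratio of 0.76, is under the 2-fold threshold, and 17.0% of measured probe sets had a higher ratio. Under the alternative settings the log2 ratio ran from 0.40 to 0.85. The lowest of these came with the floor at the 70th percentile, which lies above the parental signal and leaves only a bound.

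MLX, the partner of the Mondo proteins and of some MXD proteins, was lower in the K-ras line in every probe set. Probe set 213708_s_at gave signals of 229 in the K-ras line and 300.2 in the parental line. Probe set 217909_s_at had 199 in the K-ras line and 244 in the parental line, and the uncertain 217910_x_at had 160.0 in the K-ras line and 226 in the parental line. The mean log2 ratio of these 3 was -0.40 ± 0.10 (SD, n = 3 probe sets of 1 array pair). The fourth, 210752_s_at, gave 37.7 in the K-ras line, below the floor, and 54.8 in the parental line, a bound of at least 1.17-fold lower. The MLX probe sets thus gave closely similar ratios, all under 2-fold, and all 4 stayed negative under every alternative setting in which they were measured. For the 3 above the floor on both arrays, the floor at the 30th or 70th percentile or no floor could not change the ratio. Probe sets of 1 gene share the same RNA and are no replicates of the lines.

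MGA, the large scaffold of a polycomb complex that keeps E-box and T-box genes silent, passed the floor in the parental line alone. Its only probe set, 212945_s_at, gave signals of 5.30 in the K-ras line and 98.1 in the parental line. Against the floor this is at least 2.09-fold lower, a bound at a log2 ratio of -1.06. The parental signal was 2.09 times the floor, so no larger bound could have been seen. The bound was at a log2 ratio of -2.30 with the floor at the 30th percentile, and with the floor at the 70th percentile MGA was not measured. MGA rests on a single probe set that stands not far above the floor in the parental line.

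Transcripts of long genes tended to be lower in the K-ras line, and MGA is a long gene. Over 5994 genes above the floor on both arrays, the log2 ratio and the genomic span in GRCh38.p14 had a Spearman rho of -0.22 across genes, which share the 2 arrays and are no replicates. In the 1199 genes with the longest spans the median log2 ratio was -0.11, and in the 1199 with the shortest it was 0.35. MGA spans 149 kb and MAX 96.6 kb, both among the longest. MYC spans 7.52 kb and MLX 6.10 kb, both among the shortest, so MLX lay well below the median of genes of its length and MYC above it. When the trend with span was removed, the MGA bound was at a log2 ratio of -0.81, no longer 2-fold, MYC was at 0.58 and the 3 MLX probe sets above the floor were between -0.71 and -0.51. The 4 MAX probe sets above the floor in both lines then lay between log2 ratios of 0.33 and 1.34. What links span to the ratio was not tested.

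**Figure D2:**
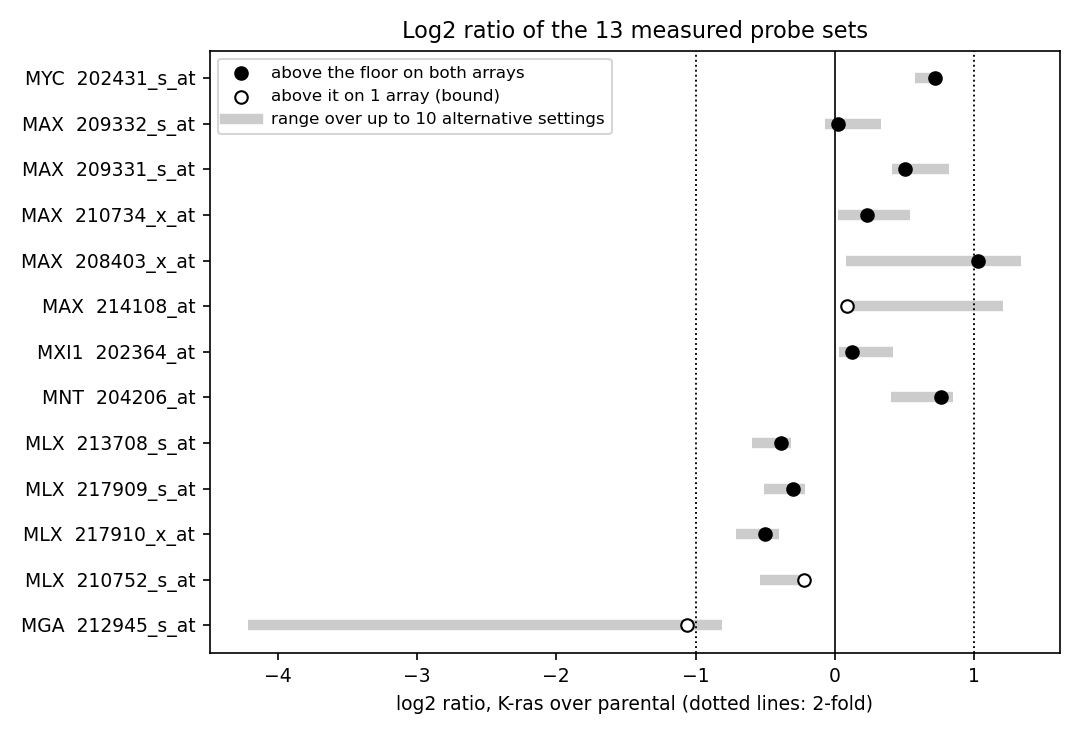
Log2 ratio of K-ras over parental signal for the 13 measured probe sets (x axis), with filled points for values above the floor on both arrays, open points for bounds and grey bars for the range over up to 10 alternative settings. MYC (0.72) and MNT (0.76) lie right of 0 throughout and MLX left of 0 throughout, while the MAX probe sets spread from 0.02 to 1.02.

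**Figure D3:**
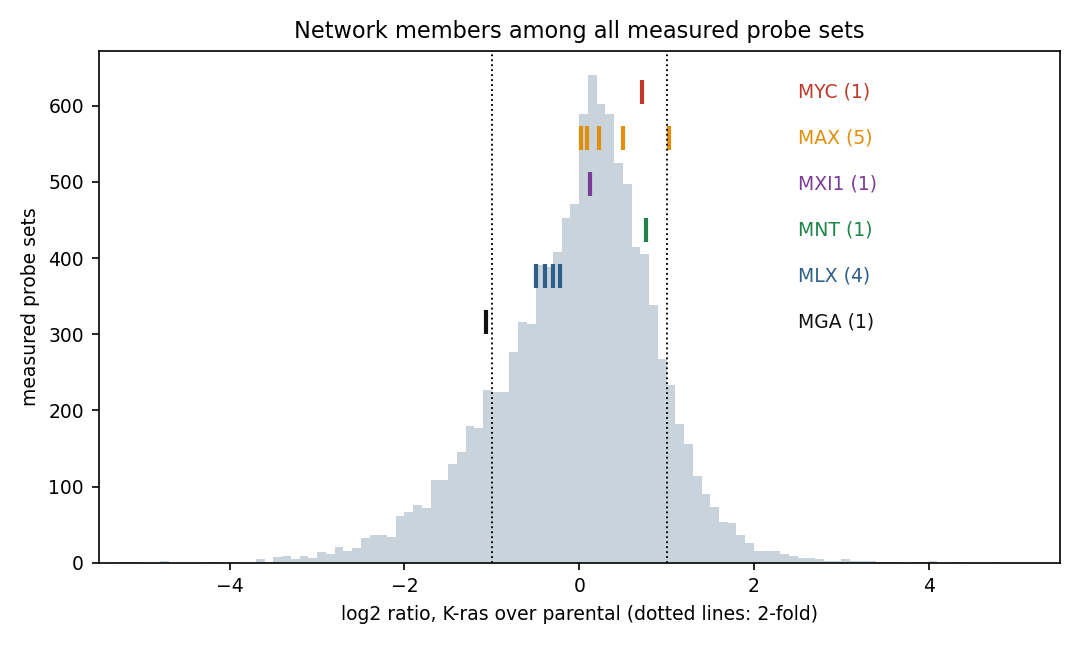
Histogram of the log2 ratio of all 11084 measured probe sets with 1 gene symbol (y axis, number of probe sets), with the measured members as coloured ticks and dotted lines at 2-fold. The members above the floor on both arrays lie between -0.50 for 1 MLX probe set and 1.02 for 1 MAX probe set. The ticks of MGA, of 1 MLX and of 1 MAX probe set are bounds whose place is set by the floor.

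Other factors that bind E-box elements, beside the network's members, were mostly higher in the K-ras line. Of 15 genes listed, 8 were measured and 7 of these had a log2 ratio above 0, of which 3 were at least 2-fold higher, none was lower by as much, and the median log2 ratio was 0.81 against 0.10 over all 7693 measured genes. The share of all measured genes higher by 2-fold or more was 9.97%, and the share lower by as much was 14.4%. Of all measured genes, 4240 had a log2 ratio above 0 and 3450 below. Without _x_at and _s_at probe sets, where fewer genes were tested, 1 gene of this list was at least 2-fold higher in place of 3. TFE3, a regulator of lysosomal genes, gave signals of 620 in the K-ras line and 230.4 in the parental line, a 2.69-fold difference, and its second probe set gave a log2 ratio of 1.75. USF2, a ubiquitous E-box factor, was 3.33-fold higher on an uncertain _x_at probe set, and its other 2 measured probe sets gave log2 ratios of 2.09 and 2.48. SREBF2, which drives sterol synthesis, was 2.99-fold higher, with a second probe set at a log2 ratio of 0.76. Among the relatives of MYC, MYCL gave signals of 107 in the K-ras line and 65.0 in the parental line, a 1.65-fold difference. MYCN was below the floor on both arrays. MLXIP, which encodes the Mondo partner of MLX, gave signals of 190 in the K-ras line and 148 in the parental line (1.28-fold), and its relative MLXIPL was below the floor on both.

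The corepressor that MXD proteins and MNT recruit was lower in its deacetylase subunits. Of 10 measured genes of the SIN3 and histone deacetylase list, 3 were at least 2-fold lower, none was higher by as much, and the median log2 ratio was -0.30. The list was split, with 5 genes above 0 and 5 below. The share lower was 30%, against 14.4% of all measured genes, of which 9.97% were higher. The deacetylase HDAC1 gave signals of 251 in the K-ras line and 721 in the parental line, a 2.87-fold difference. Its close relative HDAC2 had 236 in the K-ras line and 624 in the parental line, a 2.64-fold difference. SAP30, a linker subunit, was at least 2.37-fold lower on an uncertain probe set. The scaffold SIN3B was not lower, with signals of 77.4 in the K-ras line and 47.8 in the parental line, and SIN3A, without a probe set of its own here, was not analysed.

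Transcripts for the coactivators of MYC went both ways. Of 16 measured genes, 3 passed 2-fold on the higher side and 4 on the lower, with a median log2 ratio of 0.08. As shares this was 18.75% and 25%, against 9.97% and 14.4% of all measured genes. The count of 4 lower was 2 with quantile normalization, scaling on maintenance probe sets, the floor as a pseudocount or the trend with genomic span removed. Leaving out _x_at and _s_at probe sets gave 1 lower and 1 higher, with fewer genes tested. CDK9, the kinase that releases paused RNA polymerase, gave signals of 263 in the K-ras line and 93.3 in the parental line, a 2.81-fold difference. PAF1, of the polymerase-associated factor complex, and SMARCB1, a chromatin remodeller subunit, were 2.28-fold and 2.27-fold higher. Another subunit of the PAF1 complex, CTR9, was 3.69-fold lower. TRRAP, the scaffold that links MYC to histone acetyltransferases, gave signals of 125 in the K-ras line and 254 in the parental line. Its log2 ratio of -1.02 is close to the threshold, and its second probe set gave -0.60. ACTL6A and RUVBL1, which share complexes with TRRAP, were 2.42-fold and 2.02-fold lower. ZBTB17, also called MIZ1, through which MYC represses genes, had a log2 ratio of 0.54.

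Genes that set the life of the MYC protein went both ways, while most of those for the MYC transcript were below 0 but under 2-fold. In the protein turnover list 4 of 21 measured genes passed 2-fold on the higher side and 2 on the lower, with a median log2 ratio of -0.05. That is 19.0% higher and 9.52% lower, against 9.97% and 14.4% of all measured genes. The scaffold AXIN1, which helps in the degradation of MYC, was 3.01-fold higher. PIM1, a kinase that stabilises MYC, was 2.78-fold higher, with signals of 574 in the K-ras line and 206 in the parental line. PPP2R1A, the scaffold of phosphatase 2A, was 2.06-fold higher, and the deubiquitinase USP36 at least 2.07-fold. SKP2, a ubiquitin ligase subunit for MYC and for p27, was 3.88-fold lower on an uncertain probe set, and its other 2 gave log2 ratios of -1.68 and -1.45. PLK1, a mitotic kinase, was 2.86-fold lower. GSK3B, which marks MYC for degradation, gave signals of 894 in the K-ras line and 453 in the parental line, a 1.97-fold difference. FBXW7, the ligase subunit that reads that mark, was at least 1.51-fold lower. The list for MYC transcription and mRNA had 16 measured genes. On the lower side 2 passed 2-fold, a share of 12.5%, against 14.4% of all measured genes. No gene of the list passed it on the higher side, where 9.97% of all measured genes did. By sign, 12 had a log2 ratio below 0 and 4 above it, against 3450 and 4240 of all 7693 measured genes. The median was -0.25. The count lower was 1 with the floor as a pseudocount or the span trend removed, and 1 gene was at least 2-fold higher with a lower floor, with none, or with the median over probe sets. IGF2BP3, of a family that protects the MYC mRNA, gave signals of 59.9 in the K-ras line and 331 in the parental line, a 5.52-fold difference, and a second probe set gave a log2 ratio of -2.34. CTNNB1, which encodes beta-catenin, was 2.07-fold lower.

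The polycomb complex around MGA had members on both sides. Of 6 measured partners, 1 was at least 2-fold higher and 2 as far lower, with a median log2 ratio of -0.26. With so few genes the shares were 16.7% and 33.3%, against 9.97% and 14.4% of all measured genes. The median turned positive, at 0.19, with the floor at the 30th percentile and with no floor. The count higher was 2 with no floor and 0 with the span trend removed. CBX3, the heterochromatin protein of the complex, gave signals of 115 in the K-ras line and 863 in the parental line, a 7.49-fold difference, and its second probe set gave a log2 ratio of -2.41. TFDP1, the dimer partner of E2F6, was 2.32-fold lower, with a second probe set at -1.10. E2F6 itself gave signals of 97.3 in the K-ras line and 152 in the parental line, a 1.57-fold difference. RING1, the ubiquitin ligase, was 2.26-fold higher, with a second probe set at 1.38. L3MBTL2 and PCGF6, the subunits most particular to the complex, had no probe set of their own here and were not analysed. Of 10 germ cell genes that the complex is known to silence in mouse cells, 5 had a probe set and 1 was measured, the cohesin subunit STAG3, whose log2 ratio was 0.37. The other 4 with a probe set were below the floor in both lines, so nothing can be said of their levels.

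Genes that MYC is known to activate were not higher as a group, while MYC itself was 1.65-fold higher. Of 34 genes in the ribosome biogenesis list, 26 had a probe set with 1 symbol, and all of these were measured. Among them, 3 passed 2-fold on the higher side and 5 on the lower, with a median log2 ratio of -0.09. These shares, 11.5% and 19.2%, were not far from the 9.97% and 14.4% of all measured genes. Nucleolin, NCL, a classical target, gave signals of 1728 in the K-ras line and 3477 in the parental line, a log2 ratio of -1.01. The RNA helicase DDX21 was 3.57-fold lower and WDR12 2.60-fold, and WDR43 and UTP20, of the small subunit processome, were at least 5.52-fold and 4.15-fold lower. PES1, the binding partner of WDR12, was instead 2.67-fold higher. RRP12 was 2.97-fold higher, while further probe sets lay at log2 ratios of 0.10 and 1.18, and TCOF1 was 2.27-fold higher, with a log2 ratio of 0.31 in its other probe set. In the list for metabolism and growth, 2 of 33 measured genes passed 2-fold on the higher side and 10 on the lower, with a median log2 ratio of -0.29. The shares here were 6.06% higher and 30.3% lower.

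The 2 higher genes of that list, like the 10 lower ones, were listed as known targets of MYC. ODC1, whose E-boxes are shown above, gave signals of 8206 in the K-ras line and 3122 in the parental line, a 2.63-fold difference. SLC1A5, a glutamine transporter, gave signals of 1496 in the K-ras line and 406 in the parental line, a 3.68-fold difference. SLC1A5 is also known as a target of ATF4, a factor of amino acid stress. On the lower side, TFRC, the transferrin receptor, was 27.4-fold lower, with a K-ras signal of 48.6 that is just above the floor. The mitochondrial DNA factor TFAM was 3.73-fold lower on an uncertain probe set, the cap-binding protein EIF4E 3.42-fold and the peroxidase PRDX3 3.03-fold. Without probe sets ending in _x_at and _s_at, the median of the metabolism and growth list was 0.24 in place of -0.29, so its sign depends on which probe sets stand for the genes.

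Genes that MYC is known to repress were mostly higher in the K-ras line. Among 13 measured, 5 passed 2-fold on the higher side (38.5%, against 9.97% of all measured genes) and none on the lower (14.4% of all). The median log2 ratio was 0.94, and 11 of the 13 genes were above 0, against 4240 of all 7693 measured genes. The count higher was 3 with the floor at the 70th percentile, with the floor as a pseudocount or with the span trend removed, and 1 gene was at least 2-fold lower without _x_at and _s_at probe sets. The differentiation gene NDRG1 gave signals of 4932 in the K-ras line and 538 in the parental line, a 9.17-fold difference. CDKN1A, the inhibitor p21 of cyclin-dependent kinases, had 1705 in the K-ras line and 380 in the parental line, a 4.48-fold difference. GADD45A was 3.01-fold and CDKN1C, the inhibitor p57, 2.46-fold higher, with another CDKN1C probe set at a log2 ratio of 0.41. CEBPA, named here after its value was seen, was at least 2.15-fold higher. CDKN1B and CCND1 were little different, at log2 ratios of 0.26 and 0.06. Several of these genes also answer to p53, hypoxia or amino acid stress, and the part of MYC in their levels was not tested.

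Genes known to follow MLX and its Mondo partners showed none past 2-fold in either direction among 7 measured, of which 5 were below 0 and 2 above, with a median log2 ratio of -0.31. The median was -0.79 without _x_at and _s_at probe sets, and 1 gene was at least 2-fold lower with median centring, with the floor at the 30th percentile and with no floor. Chosen after their values were seen, the lipid synthesis enzyme ACACA gave signals of 223 in the K-ras line and 443 in the parental line, and LPIN1, a phosphatidate phosphatase, 172 in the K-ras line and 298 in the parental line. PFKFB3, a regulator of glycolysis also named after its value was seen, was at least 1.75-fold lower. TXNIP, the standard readout of the Mondo proteins and an inhibitor of glucose uptake, gave signals of 2322 in the K-ras line and 1327 in the parental line, a 1.75-fold difference, and further probe sets of the gene lay at log2 ratios of 0.34 and 1.02. ARRDC4, the other main target, had no probe set of its own here and was not analysed.

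**Figure D4:**
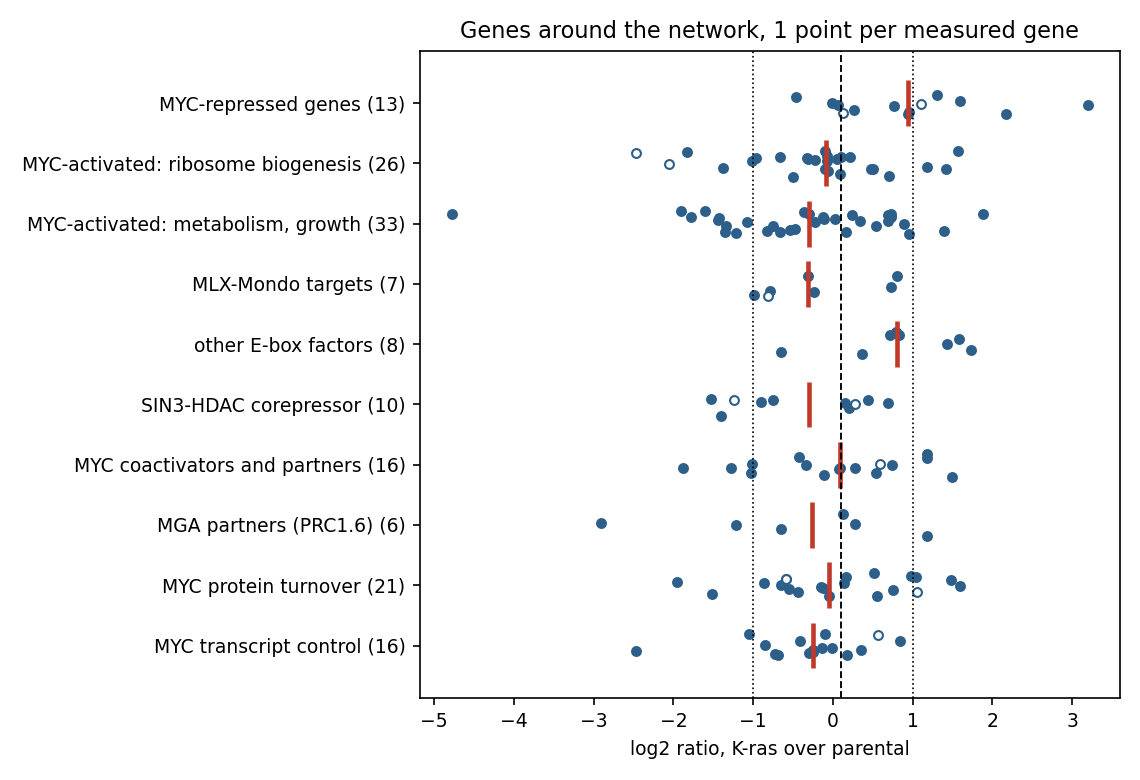
Log2 ratio of K-ras over parental signal (x axis) for the measured genes of 10 lists around the network (the germ cell list, with 1 measured gene, is left out), 1 point per gene with open points for bounds, a red bar at each list's median and a dashed line at the median of all measured genes, 0.10. The MYC-repressed list has its median at 0.94, and the MYC-activated lists have theirs at -0.09 and -0.29.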

How the data were processed

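The deposited table holds 1 linear intensity per probe set and array for 22283 probe sets, of which 68 are controls. Per the labels, RNA was extracted with phenol and chloroform, cleaned on columns and labelled by the array maker's procedure; the sources used here do not name the software behind the intensities. With 2% of probe sets left out at either end, both deposited columns averaged 150.06, so the arrays were taken as scaled, and were then set to the same trimmed mean. Probe sets were named through the array annotation, which gives 1 symbol for 19071 of them, 19059 matched by gene number to GRCh38.p14. For lists, a gene took its probe set with the highest mean log2 signal. The floor was the higher of the 2 array medians, and the threshold was 2-fold.

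The members, the 11 gene lists and the rule for naming genes were chosen with earlier results of these data known. Named genes are all members, up to 4 genes past 2-fold per list and direction, and 18 genes fixed by name. With 1 array per line, the number of arrays limits the precision and no test was possible. The procedure was run on simulated data, with 3-fold changes put into bright probe sets only. That run does not cover the dim members or differences under 3-fold. The scripts ran on pandas 2.3.3 and numpy 2.4.6 under Python 3.11.15, with loess from statsmodels 0.14.6, rank correlation from scipy 1.17.1 and plots from matplotlib 3.10.9.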

Additional observations from a re-analysis of the deposited data

How the results depend on the processing

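The counts of members past 2-fold rest on single probe sets near a threshold. The count at least 2-fold higher, 1 as reported, was 0 with median centring, a loess curve, the floor at the 70th percentile, the floor as a pseudocount, a 3-fold threshold, or without _x_at probe sets. It was 3 with the floor at the 30th percentile, with no floor and with a 1.5-fold threshold. The count at least 2-fold lower, 1 as reported, was 0 with the floor at the 70th percentile, with a 3-fold threshold, and after removal of the trend with genomic span, a setting chosen after seeing the data. The median of the MYC-activated metabolism and growth list was 0.24 without _x_at and _s_at probe sets, where fewer genes were tested. The medians of the ribosome biogenesis and MYC-repressed lists kept their sign under all settings run, between -0.28 and -0.04 and between 0.68 and 1.02. Among the other lists, the turnover count of 4 higher was 2 with the floor at the 70th percentile or as a pseudocount and 6 with the span trend removed. Without _x_at and _s_at probe sets the counts lower were 1 in place of 2 for turnover and for the MGA partners, 3 in place of 5 for ribosome biogenesis and 6 in place of 10 for metabolism and growth. This setting measured 4656 genes in place of 7693, with 460 at least 2-fold higher and 721 lower. A smaller count there can come from fewer genes tested. With no floor MGA was at a log2 ratio of -4.21 and MXD1 at 2.60, but their dim signals have no known error. On the whole array, 767 genes passed 2-fold on the higher side and 1109 on the lower, 2428 and 1797 with no floor, and 469 and 837 with the floor as a pseudocount. Signal over the floor limits the dim members: the MGA bound could not exceed 2.09-fold, and MXD1 and MXD3 allow none. No paired analysis was possible because each line has 1 array.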

Other observations

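E-boxes in promoter windows were more frequent in the lists of MYC-activated genes than in measured genes at large, but the K-ras over parental ratios of genes with an E-box were distributed much as those of genes without one. Of measured genes with a promoter window, 13.2% held CACGTG in at least 1 window. The share was 59.1% of 22 genes of the ribosome biogenesis list and 57.1% of 28 genes of the metabolism and growth list, both of which were drawn from genes known to be bound by MYC. None of 5 MYC-repressed genes with a window held it. Over all measured genes, the 844 with an E-box had a median log2 ratio of 0.06, with 10.4% at least 2-fold higher and 16.1% lower, and the 5532 without had 0.09, with 9.71% and 14.7%. Within the MYC-activated lists, 29 genes with an E-box had a median of -0.09 and 21 without had -0.31. Of these genes, the 3 at least 2-fold higher were all among those with an E-box, while 9 of the genes with an E-box and 4 of those without were at least 2-fold lower.

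The 3 probe sets that carry the symbols MXD4 and MIR4800 together cannot be given to either. Probe set 212347_x_at gave 121 in the K-ras line and 62.6 in the parental line, and 210778_s_at had 62.3 in the K-ras line and 29.5 in the parental line. Probe set 212346_s_at was below the floor on both arrays, with 19.8 in the K-ras line and 30.6 in the parental line.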
